A study of Arabidopsis thaliana with 30 samples.

Results

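The late step of callus formation in root explants was described from 6 of the 30 arrays of the study, the 3 root arrays at 96 h and the 3 root arrays at 48 h on callus-inducing medium, chosen by their titles. All explants were wild-type Columbia-0 Arabidopsis thaliana, cut as root segments or as aerial organs from 10-day-old seedlings. Both organs were sampled at 0, 12, 24, 48 and 96 h, with 3 arrays per organ and time, and every array after 0 h shares the exposure to the medium. There was no explant kept off the medium for the same time, so time in culture and exposure to the medium cannot be told apart. What the medium contained is not given in the sources used. The labels call the 3 arrays of a group biological replicates without naming separate platings. The p-values therefore measure the spread between arrays within groups, pooled over the groups of all 30 arrays.

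Callus is a mass of dividing cells that plant tissue forms on medium with auxin and cytokinin. In roots it arises mainly from the pericycle, the layer inside the endodermis, along a route that resembles the start of a lateral root. Auxin response factors switch on LOB-domain transcription factors such as LBD16 and LBD29 early on this route, and root stem cell regulators of the PLETHORA and BABY BOOM kind mark the growing callus.

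The measurement was MAS5 signal, a linear background-corrected intensity for each probe set of the ATH1 array, which carries 22746 probe sets that are not controls. Of these, 16765 were bright enough to test (above a signal of 87.4 on at least 3 of the 30 arrays) and 5981 were not tested. Changes are log2 differences of signal + 22 and understate the change of dim genes. A probe set was called at a limma adjusted p below 0.05. Replicate arrays correlated at 0.959 to 0.977 at 48 h and at 0.965 to 0.977 at 96 h, on the same log2 scale. The GAPDH control probe sets at both ends of the transcript, a measure of RNA integrity, gave a log2 ratio (3′ over 5′) of 0.613, 0.42 and -0.061 at 48 h and 0.714, 0.517 and 0.394 at 96 h. Whether this ratio has a part in the changes was not tested. Of 14 root marker genes listed, 7 were measured, with a summed signal of 18838 to 25378 at 48 h and 15521 to 20707 at 96 h, against 14124 to 21970 in aerial explants at 0 h, so this sum does not tell the organs apart. PYK10, a beta-glucosidase, made up most of it (16644 to 23243 at 48 h), and its aerial mean at 0 h was 18300. Taken singly, AGL42 had 521 to 1102 at 48 h and 375 to 551 at 96 h, against an aerial mean of 1.3 at 0 h. AGL21 had 671 to 777 and 662 to 1040 at these times, against 3.17. JKD, GSO1, EXPA7 and EXPA18 showed no such gap to the aerial mean at 0 h. Among the 9 measured of 10 green tissue markers, the summed signal in root arrays was 387 to 580 at 48 h and 467 to 564 at 96 h, against 132510 to 197012 in aerial explants at 0 h. None of the 6 xylem markers and 1 of the 4 phloem markers (OPS, not called, log2 change -0.54) was measured by a probe set naming that gene alone. In bulk tissue, fewer cells of a type and less RNA per cell cannot be told apart.

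From 48 to 96 h, 1194 of 16765 probe sets were called in root explants, or 7.12%. Of these, 623 rose (3.72% of those tested) and 571 fell (3.41%). At least 2-fold changes made up 782 of the calls (4.66%), and at least 4-fold changes made up 48 of the rises and 55 of the falls. The median size was 1.15 among called rises and 1.22 among called falls. The lowest and highest arrays of the 2 times did not overlap for 614 of the rises and 551 of the falls. The same count over all 16765 probe sets is not given here, so these counts are a description. Rises made up 52.2% of the calls, and 40.9% after centring each array on its median, which moved the median change of all probe sets from 0.0568 to -0.0263. The count of calls was 661 without 48 h replicate 2, 636 without 48 h replicate 3, 755 without 96 h replicate 2 and 673 without 96 h replicate 3. At an unadjusted p below 0.05, 3228 probe sets passed. The annotation used here names 1 gene for 595 of the 1194 called probe sets, several for 17 and none for 582. Counted by gene, 299 of 9082 measured genes rose (3.29%) and 293 fell (3.23%). Since only 1263 of the measured genes carry a symbol, the named genes are a small part of the change, and 105 genes with a symbol were called.

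**Figure D1:**
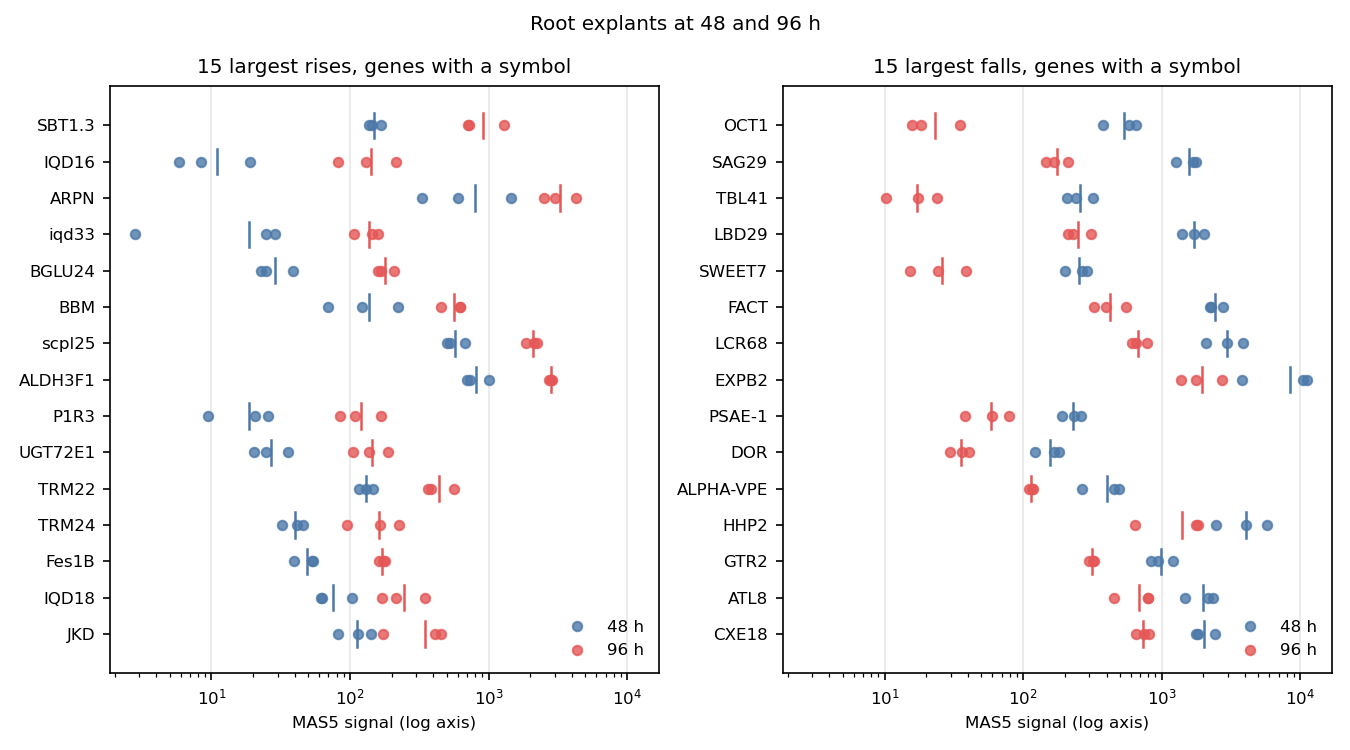
MAS5 signal (log axis) on each of the 3 root arrays at 48 h (blue) and at 96 h (red) for the 15 largest rises (left) and the 15 largest falls (right) among called genes with a symbol. Short vertical bars are group means. The genes were ranked by this change and chosen for groups that do not overlap, so the gap between the colours is a description.

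The genes that rose most included regulators of root and embryonic stem cells. BBM (BABY BOOM), an AP2-type transcription factor that promotes embryo formation and maintains root stem cells, had signals of 224, 69.3 and 122 at 48 h and of 620, 454 and 619 at 96 h. All 3 arrays at 96 h lay above all 3 at 48 h, where replicate 1 was the highest and replicate 2 the lowest. The log2 rise was 1.97 ± 0.417 (SE, n = 3 per time, limma adjusted p = 0.00287). Leaving out any 1 of the 6 arrays did not end the call, whereas taking log2 without a pseudocount did (2.17, adjusted p = 0.194). The mean signal of BBM was 39.0 at 0 h and 66.0 at 24 h, so most of its increase over the series fell in the last step.

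Among the 11 measured genes of the root patterning and stem cell list, 3 rose and 0 fell, against 3.29% and 3.23% of all genes, and the median change was 0.19 against 0.06 for all 9082 genes. JKD (JACKDAW), a zinc finger protein that restricts the movement of SHORT-ROOT in the root ground tissue, had 114, 143 and 82.1 at 48 h and 174, 456 and 410 at 96 h. Its rise was 1.37 ± 0.364 (limma adjusted p = 0.0181), and 96 h replicate 1 lay close to the 48 h arrays. CR4 (ACR4), a receptor kinase that controls formative divisions in the pericycle and in columella stem cells, had 94.4, 161 and 95.5 at 48 h, and then 258, 390 and 263 at 96 h. The groups did not overlap, and the rise was 1.24 ± 0.298 (limma adjusted p = 0.00849). The call for JKD ended without 48 h replicate 3, 96 h replicate 2 or 96 h replicate 3 (changes of 1.13 to 1.21, adjusted p = 0.101 to 0.115). The call for CR4 ended without 48 h replicate 3 or 96 h replicate 2 (1.06 to 1.13, adjusted p = 0.0561 to 0.0657), and also with no pseudocount (1.4, adjusted p = 0.0751). The other 8 genes of the list were not called, among them CLE27 (1.26, adjusted p = 0.128) and GSO1 (-0.69, adjusted p = 0.126).

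The LOB-domain factors of early callus formation did not move together. LBD29 had signals of 1412, 2038 and 1711 at 48 h and of 230, 308 and 209.8 at 96 h. Every 96 h array was far below every 48 h array, and the change was -2.68 ± 0.442 on the log2 scale (limma adjusted p = 0.000214). Its mean had climbed from 32.5 at 0 h to 2820 at 24 h and then stood at 1720 at 48 h and 249 at 96 h. LBD16 had 2162, 2741 and 2459 at 48 h, and then 2029, 2208 and 2262 at 96 h. The arrays of the 2 times overlapped, and the change was -0.17 ± 0.31 (adjusted p = 0.83). Likewise, PUCHI, a transcription factor that acts in lateral root primordia, was not called, with means of 2129 ± 172 (SD) at 48 h and 1929 ± 355 at 96 h.

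Of the 10 measured auxin response and conjugation genes, 0 rose and 1 fell (3.29% and 3.23% of all genes), with a median of 0.14. The gene that fell was IAA18, a repressor of auxin response, with 751, 612 and 737 at 48 h and 502, 355 and 337 at 96 h (-0.80 ± 0.249, adjusted p = 0.0477). Its call ended without any 1 of 5 arrays, that is, each of the 6 except 96 h replicate 1 (-0.89 to -0.69, adjusted p = 0.0787 to 0.196), and also with no pseudocount (adjusted p = 0.0574), with no filter on low values (0.0588) and with eBayes without a trend (0.0678). GH3.3, an auxin-conjugating enzyme often used as a readout of auxin response, had 8509, 6760 and 9718 at 48 h and 9639, 9870 and 11230 at 96 h. These arrays overlapped, and the change was 0.31 ± 0.355 (adjusted p = 0.712). The cytokinin response gene ARR15 stayed dim, with means of 24.3 at 48 h and 15.9 at 96 h (-0.26, adjusted p = 0.809).

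Cell cycle genes had mostly positive changes of less than 1 on the log2 scale, and few were called. By limma's adjusted p, none of 9 mitosis and cytokinesis genes was called either way (median 0.38), nor was any of 5 DNA replication genes (median 0.5), and 2 genes of each list had an unadjusted p below 0.05, as did 17.9% of all genes. Among 7 histone genes, 2 rose and 0 fell (3.29% and 3.23% of all genes), and the median was 0.58. Both were genes of histone H2B, the core histone that pairs with H2A. HTB2 had 2049, 1644 and 1840 at 48 h and 3149, 3386 and 2685 at 96 h, a rise of 0.73 ± 0.191 (limma adjusted p = 0.0163). HTB1 had 1948, 2647 and 2557 at 48 h and 3141, 5068 and 3460 at 96 h, a rise of 0.68 ± 0.208 (adjusted p = 0.042). For both, the lowest 96 h array stood above the highest 48 h array. HTB2 rose by 1.04 in aerial explants too. The single measured gene of the list of cyclins, kinases and their inhibitors was SIM (SIAMESE), an inhibitor of cyclin-dependent kinases that promotes endoreduplication. SIM had 524, 601 and 587 at 48 h and 248, 323 and 252 at 96 h, a change of -1.01 with no overlap. The calls for HTB2 and SIM each ended without any 1 of 4 arrays: for HTB2, 48 h replicates 2 and 3 and 96 h replicates 1 and 2 (0.65 to 0.73, adjusted p = 0.0554 to 0.0953), and for SIM, 48 h replicates 2 and 3 and 96 h replicates 1 and 3 (-0.99 to -0.94, adjusted p = 0.0735 to 0.0822). The call for HTB1 ended without any 1 array other than 96 h replicate 1 (0.48 to 0.76, adjusted p = 0.0668 to 0.259), and under 4 other settings: no pseudocount (adjusted p = 0.0534), no filter (0.0518), median centring (0.138) and eBayes without a trend (0.0635).

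Genes of the IQD family, calmodulin-binding proteins that associate with microtubules, rose more often than any other gene family with at least 5 measured members. The family was singled out after the values of 42 such families were seen, so its count is a description. Of 14 measured IQD genes, 9 rose and 0 fell, against 3.29% of all genes that rose, and their median change was 0.99. IQD16 had signals of 5.8, 8.4 and 18.9 at 48 h and of 82.0, 214 and 129.9 at 96 h. It was dim on all 3 arrays at 48 h, and at 96 h 2 of the 3 arrays were above 87.4, with a rise of 2.25 ± 0.417 (limma adjusted p = 0.000778). The gene iqd33 had 24.6, 2.8 and 28.7 at 48 h and 160, 107 and 144 at 96 h (2.02 ± 0.356, adjusted p = 0.000453). IQD18 had 61.5, 63.2 and 103 at 48 h and 216, 348 and 172 at 96 h (1.42 ± 0.342, adjusted p = 0.00852), and the call ended without 96 h replicate 2 (1.16, adjusted p = 0.0749). These 3 genes come from the ranked rises, which were chosen for groups that do not overlap. The other rises, from IQD24 at 1.34 to IQD31 at 0.75, each lost their call without at least 2 of the 6 arrays (adjusted p = 0.0513 to 0.211 there). The count of IQD genes that rose was 7 of 14 without replicate 1 of either time, 4 without 48 h replicate 2, 5 without 48 h replicate 3, and 3 without 96 h replicate 2 or without 96 h replicate 3. It was 5 of 10 under a stricter filter on low values.

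The IQD genes had also changed earlier in the same explants, in arrays that the late step does not use. From 0 to 24 h, 7 of the 14 fell and 1 rose, with a median of -0.45, while 17.8% of all probe sets fell in that comparison. IQD16 went from a mean of 77.1 at 0 h to 8.57 at 24 h and to 142 at 96 h. The mean of iqd33 was 149 at 0 h, 13.9 at 24 h and 137 at 96 h, so its 96 h level was near the level before culture. In aerial explants, 1 of the 14 rose from 48 to 96 h (IQD16, 1.37), with a median of 0.01. The difference between the organs was called for 1 member only, IQD24 (2.2, adjusted p = 0.0158). Of the 2 other genes with a known link to microtubule arrays among the largest rises, TRM22 had 146, 117 and 131 at 48 h and 385, 564 and 366 at 96 h. TRM22 rose by 1.57 ± 0.311 (limma adjusted p = 0.00154; with no pseudocount 1.72, adjusted p = 0.0521). TRM24 rose by 1.52 ± 0.427 (adjusted p = 0.0259), a call that ended without 48 h replicates 2 or 3 or 96 h replicates 1 or 3 (1.27 to 1.54, adjusted p = 0.0756 to 0.152), with no pseudocount (adjusted p = 0.396) and after quantile normalization (0.0554). TRM genes code for proteins that bind TON1 at cortical microtubules, and the other 9 measured genes of that group (leaving out TRM82, which only shares the letters) were not called.

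**Figure D2:**
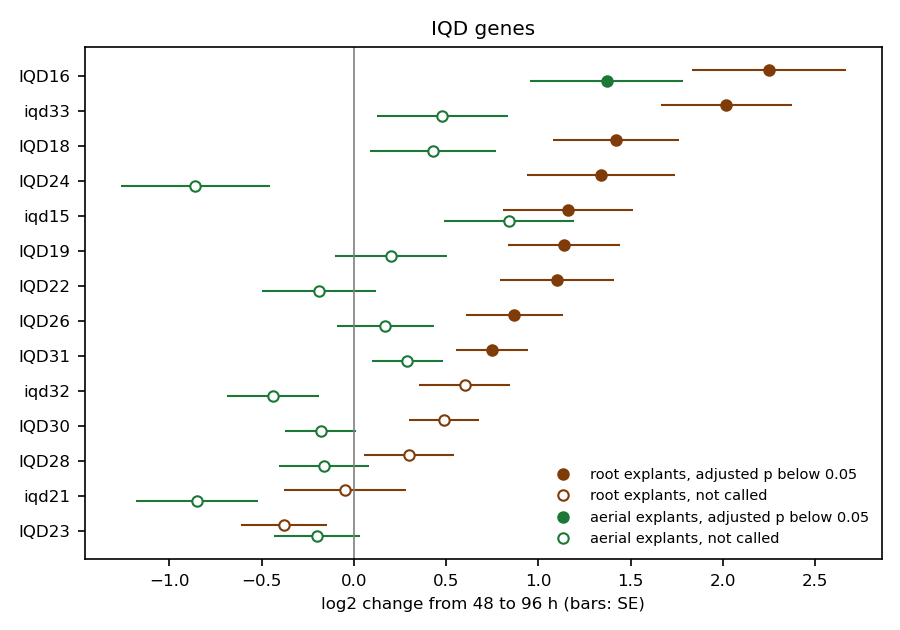
Change from 48 to 96 h (log2, bars are SE) of the 14 measured IQD genes in root explants (brown) and aerial explants (green), with filled points for an adjusted p below 0.05. In roots 9 points are filled, from 0.75 for IQD31 to 2.25 for IQD16, and in aerial explants 1 is filled.

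Genes of secreted and vacuolar proteases changed in both directions. SBT1.3, a subtilisin-like serine protease, was the largest named rise, with 168, 145 and 137 at 48 h and 727, 1291 and 717 at 96 h. All 96 h arrays were above all 48 h arrays, and the rise was 2.39 ± 0.291 (limma adjusted p = 4.49e-06). Its mean had been 212 at 0 h and 52.4 at 24 h. Of the 6 measured subtilase genes with an SBT symbol, this 1 rose and 3 fell (3.29% and 3.23% of all genes). SBT3.3 had 1116, 1553 and 1431 at 48 h and 640, 524 and 571 at 96 h (-1.20 ± 0.258, adjusted p = 0.00327; with no pseudocount adjusted p = 0.083). The falls of SBT5.4 (-1.34) and SBT4.12 (-1.19) lost their calls with no pseudocount (adjusted p = 0.187 and 0.066). SBT5.4 also lost its call without 48 h replicate 3 or 96 h replicate 2 (adjusted p = 0.0635 to 0.0826). SBT4.12 lost its call without 48 h replicates 1 or 3 or 96 h replicates 1 or 2 (adjusted p = 0.0676 to 0.249).

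The vacuolar processing enzyme ALPHA-VPE, a cysteine protease, had 493, 268 and 454 at 48 h, and then 118, 116 and 110 at 96 h. The 3 arrays at 96 h lay close together and below all 48 h arrays, and the change was -1.60 ± 0.348 (limma adjusted p = 0.00376; with no pseudocount -1.77, adjusted p = 0.0582). Over the whole list of proteasome, autophagy and protease genes, 1 of 24 measured genes rose and 5 fell (3.29% and 3.23% of all genes), with a median of -0.17. Also falling in the list was ATG8H, an autophagy gene (-0.97, adjusted p = 0.033), whose call ended without any 1 of the 6 arrays (-1.04 to -0.86, adjusted p = 0.0596 to 0.145). Serine carboxypeptidase-like genes also went both ways, 3 of 17 rising and 2 falling (3.29% and 3.23% of all genes). The largest was scpl25, with 680, 504 and 531 at 48 h and 2144, 2245 and 1849 at 96 h, where the groups stood wide apart (1.83 ± 0.201, adjusted p = 8.84e-07).

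Sugar transporter genes gave some of the largest falls. SAG29 codes for SWEET15, a sucrose exporter induced in senescing leaves. SAG29 had 1271, 1694 and 1767 at 48 h, and then 167, 212 and 147 at 96 h. The highest 96 h array was far below the lowest 48 h array, and the change was -3.02 ± 0.513 (limma adjusted p = 0.000298). SWEET7, another sugar transporter of the family, had 268, 201 and 287 at 48 h and 38.6, 15.2 and 24.3 at 96 h, a change of -2.53 ± 0.382 (adjusted p = 8.89e-05) that left it dim on all 96 h arrays. Their courses before 48 h differed, since SAG29 rose from a mean of 38.9 at 0 h to 568 at 24 h, whereas SWEET7 was at 27.4 and 41.7 at those times. The sugar transport and starch list had 14 measured genes, of which 1 rose and 3 fell (3.29% and 3.23% of all genes), with a median of -0.09. The other falling gene was SWEET16, a vacuolar sugar transporter (-0.98, adjusted p = 0.019), and the rise was SWEET1, a glucose transporter (1.25, adjusted p = 0.0176). Their calls ended without 48 h replicates 2 or 3 or 96 h replicate 2, and for SWEET16 also without 96 h replicate 3 (SWEET1 1.06 to 1.29, adjusted p = 0.0508 to 0.117, and SWEET16 -1.01 to -0.93, adjusted p = 0.0532 to 0.0826).

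Among other transporter genes, OCT1, GTR2 and AT2G26690 fell. OCT1, a membrane transporter of organic cations and carnitine, had the largest named fall, from 579, 380 and 652 at 48 h to 15.7, 35.2 and 18.2 at 96 h. It was dim on every 96 h array, and the log2 change was -3.63 ± 0.669 (limma adjusted p = 0.000752). Its mean had already gone from 751 at 0 h to 47.0 at 24 h, so the 48 h level was a return before the late fall. GTR2, which carries glucosinolates, had 1214, 936 and 839.9 at 48 h and 301, 320.1 and 326 at 96 h (-1.58 ± 0.241, adjusted p = 9.69e-05). AT2G26690, a member of the nitrate and peptide transporter family (NPF6.2), had 569, 533 and 405 at 48 h and 199, 213 and 119 at 96 h (-1.42 ± 0.256, adjusted p = 0.000575). For both, the groups did not overlap, and among the 11 measured genes of the nitrate, phosphate and metal transport list they were the 2 that fell, with 0 rising and a median of -0.72. Of all genes, 3.29% rose and 3.23% fell, and their median was 0.06. The list held no phosphate transporter, and its FRO1 is FROSTBITE1, a gene of mitochondrial complex I caught by its letters (-0.15, not called).

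FACT, an acyltransferase that makes the alkyl caffeates of suberin waxes, had 2241, 2261 and 2787 at 48 h and 324, 550.3 and 398 at 96 h. Its groups stood wide apart, and it changed by -2.48 ± 0.392 (limma adjusted p = 0.000137). Its mean was 986 at 0 h and 737 at 24 h, below the 48 h mean of 2429. LCR68, a small cysteine-rich protein of the plant defensin family, was steady from 3990 at 0 h through 3840 at 24 h to 2973 ± 871 (SD) at 48 h, and had 609, 652 and 779 at 96 h. Its late change was -2.06 ± 0.203 (adjusted p = 1.37e-07). It was the 1 gene called among the 14 measured genes of the wound, jasmonate and defence list, where 0 rose (3.29% of all genes rose and 3.23% fell). That list also matched PDF1A and PDF1B by their letters, which are peptide deformylase genes and not defence genes. PR-1-LIKE of that list had 15430, 17792 and 19276 at 48 h and 5018, 7067 and 4647 at 96 h without passing the test (-1.66, adjusted p = 0.061). The peroxidase gene AT5G66390 (PRX72, a class III peroxidase linked to lignin formation) was the 1 called of 6 such genes, with 157, 192 and 192 at 48 h and 46.4, 34.4 and 28.0 at 96 h. These arrays did not overlap, and the change was -1.80 ± 0.404 (adjusted p = 0.00478).

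On the rising side, ALDH3F1, an aldehyde dehydrogenase, had 1009, 694 and 734 at 48 h, and then 2888, 2725 and 2841 at 96 h. The 96 h arrays differed little among themselves, and the rise was 1.79 ± 0.241 (limma adjusted p = 1.92e-05). UGT72E1, a glucosyltransferase of coniferyl aldehyde and related phenylpropanoids, had 36, 20.3 and 24.7 at 48 h and 188, 137 and 105 at 96 h. Its rise of 1.74 ± 0.338 (adjusted p = 0.00127) was the single call, in either direction, among 38 measured UDP-glycosyltransferase genes. Of all genes, 3.29% rose and 3.23% fell. BGLU24, a gene of the beta-glucosidase family, had 24.6, 22.8 and 38.5 at 48 h and 208, 158 and 167 at 96 h (1.98 ± 0.408, adjusted p = 0.00216). With no pseudocount its call ended (2.66, adjusted p = 0.108), as all 3 of its 48 h arrays were dim. Fes1B, a relative of the nucleotide exchange factor of Hsp70, had 54.2, 39.4 and 53.3 at 48 h and 161, 178 and 172 at 96 h (1.44 ± 0.291, adjusted p = 0.00175). P1R3, for which no role is given here, had 9.5, 25.5 and 20.6 at 48 h and 168, 84.5 and 108 at 96 h (1.79 ± 0.339, adjusted p = 0.000973).

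Named cell wall genes changed in both directions. ARPN, a plantacyanin (a blue copper protein of the cell wall known from pollen tube guidance), had 1458, 332 and 601 at 48 h, and then 4251, 2527 and 3003 at 96 h. The groups were apart although 48 h replicate 1 was much higher than the other 48 h arrays, and the rise was 2.22 ± 0.388 (limma adjusted p = 0.000414). Its mean climbed at every time, from 57.5 at 0 h through 307 at 24 h and 797 at 48 h to 3260 at 96 h. TBL41, of a family whose members acetylate wall polysaccharides, had 242, 208 and 321 at 48 h and 10.3, 17.3 and 24.0 at 96 h. It became dim on all 3 arrays (-2.83 ± 0.282, adjusted p = 1.49e-07). Among the other 16 measured TBL genes, 1 rose, TBL45 (1.15), and 0 fell (3.29% and 3.23% of all genes).

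Among 23 measured expansin and xyloglucan enzyme genes, 2 rose and 2 fell (3.29% and 3.23% of all genes), with a median of -0.21. Of the 8 measured EXPA genes, 1 had a change above 0 and 1 was called, with a median of -0.53. EXPB2, a beta-expansin, which loosens cell walls, had 11203, 3818 and 10438 at 48 h, and then 1390, 2720 and 1755 at 96 h. The 48 h arrays were widely spread, with replicate 2 nearest to the 96 h arrays, and the change was -2.01 ± 0.595 (limma adjusted p = 0.0356). EXPA15, an alpha-expansin, had 4253, 3366 and 4041 at 48 h and 1513, 1504 and 1976 at 96 h (-1.22 ± 0.362, adjusted p = 0.0365). The rises were EXLB1, an expansin-like gene (1.22, adjusted p = 0.0181), and XTH19, a xyloglucan endotransglucosylase (1.02, adjusted p = 0.0224). None of the 4 held its call through the removal of each array. EXPB2 lost it without 48 h replicates 1 or 3 or 96 h replicates 1 or 3 (adjusted p = 0.109 to 0.155), EXPA15 without any 1 of the 6 (0.0607 to 0.119), EXLB1 without 48 h replicate 3 or 96 h replicates 1 or 3 (0.0696 to 0.122) and XTH19 without 48 h replicates 2 or 3 or 96 h replicates 1 or 2 (0.054 to 0.0998). With no pseudocount and with eBayes without a trend, the calls of EXPB2 (adjusted p = 0.132 and 0.0534) and EXPA15 (0.0645 and 0.0558) ended as well. EXPA4, an alpha-expansin with a mean of 599 at 0 h and 14729 at 24 h, was not called in the late step (-0.34, adjusted p = 0.46), though its groups did not overlap.

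Other lists held 1 or 2 calls each, where 3.29% of all genes rose and 3.23% fell. Among 17 pectin and cellulose genes, the cellulase gene GH9B13 rose (1.04) and GH9C2 fell (-0.83). Among 13 glutathione transferase genes, GSTU27 rose (0.76) and GSTU22 fell (-1.07). CYP718 fell (-1.10) among 12 cytochrome P450 genes. WRKY47, a transcription factor, fell (-0.89) among 7 NAC and WRKY genes, in a list where no MYB gene was measured. EXO, a brassinosteroid-responsive gene, rose (1.05) among 6 gibberellin and brassinosteroid genes, in a list where no ethylene gene was measured. None of these 7 calls held through the removal of each array, and each ended without at least 4 of the 6 (adjusted p = 0.0514 to 0.277 there). In the glucosinolate and sulfur list of 17 genes BGLU24 rose and GTR2 fell, and in the LOB-domain and AP2/ERF list of 5 BBM rose and LBD29 fell. The list of 3 for arabinogalactan proteins and extensins also matched the plantacyanin ARPN, which rose. Its other members, HRGP1 (-0.46) and AT3G09000 (0.01), were not called. No gene was called, by limma's adjusted p, in the lists for auxin transport, cytokinin, homeobox and GRAS factors, MADS and bHLH factors, root hair, vascular and secondary wall, flavonoids, aquaporins, lipid remobilisation, cutin and suberin, ribosome biogenesis, heat shock, cold and dehydration, hypoxia, or clock and light, which held 1 to 20 measured genes. The aquaporin list held only AQI, an aquaporin interactor, so no aquaporin itself was measured in it. CHI of the flavonoid list is a chitinase gene and is counted in the wound and defence list too. In these 15 lists, 5 of 81 entries had an unadjusted p below 0.05, against 17.9% of all genes. COR27 is entered under both cold and clock.

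Further named falls were DOR, HHP2, ATL8 and CXE18. DOR, an F-box gene that acts in drought responses of guard cells, had 182, 167 and 122 at 48 h and 40.5, 36.5 and 29.6 at 96 h (-1.62 ± 0.436, limma adjusted p = 0.0192). HHP2, a heptahelical membrane protein related to animal adiponectin receptors, had 5714, 2472 and 4057 at 48 h and 639, 1833 and 1760 at 96 h (-1.58 ± 0.363, adjusted p = 0.00592). The call for DOR ended without 48 h replicates 1 or 2 or 96 h replicates 2 or 3 (-1.64 to -1.52, adjusted p = 0.0553 to 0.0771) and with no pseudocount (adjusted p = 0.242). The call for HHP2 ended without 96 h replicate 1, its lowest array (-1.09, adjusted p = 0.077). ATL8, a RING-type ubiquitin ligase, had 1477, 2342 and 2156 at 48 h and 801, 452 and 791 at 96 h (-1.54 ± 0.28, adjusted p = 0.000643). CXE18, a carboxylesterase, had 1770, 1838 and 2439 at 48 h and 648, 747 and 812 at 96 h (-1.42 ± 0.22, adjusted p = 0.000112). These 4 genes come from the ranked falls, which were chosen for times that do not overlap.

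Several of the largest changes belong to genes with a locus code only, chosen by rank after their values were seen. AT1G29670 had 179, 137 and 132 at 48 h and 1611, 1335 and 1254 at 96 h, a rise of 3.06 ± 0.349 (limma adjusted p = 1.71e-06). AT5G12940 had 243, 115 and 176 at 48 h and 1022, 1492 and 1091 at 96 h (2.65 ± 0.351, adjusted p = 1.54e-05). In the other direction, AT4G23670 had 648, 1348 and 830 at 48 h and 51.0, 45.3 and 76.4 at 96 h (-3.55 ± 0.3, adjusted p = 2.57e-08). AT2G41800 had 6591, 7502 and 8652 at 48 h and 748, 1625 and 1021 at 96 h (-2.78 ± 0.279, adjusted p = 1.52e-07). These 4 genes were chosen among those whose 2 times do not overlap, so that gap is a description. No role is given for them here.

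The late changes were set against the first day of culture, 24 h against 0 h in root explants, which shares no array with the late step. In that comparison 27.1% of all probe sets rose and 17.8% fell. Of the 571 probe sets that fell late, 265 had risen in the first day, or 46.4%, and 102 had fallen, or 17.9%. Of the 623 that rose late, 138 had risen in the first day, or 22.2%, and 179 had fallen, or 28.7%. As shares of the first-day lists, the late falls made up 5.84% of the early rises and 3.42% of the early falls, and the late rises made up 3.04% and 6% of them. Late falls were therefore more often early rises, and late rises more often early falls, than the probe sets tested as a whole, which is a description of shares and not a test. The named genes follow both patterns and others. LBD29 (5.82 from 0 to 24 h), SAG29 (3.25), EXPB2 (3.15), HHP2 (2.4) and ATL8 (2.01) rose early and fell late, while SBT1.3 (-1.69), iqd33 (-2.28) and UGT72E1 (-1.28) fell early and rose late. ARPN (1.96) and CR4 (1.54) rose in both, and OCT1 (-3.34) and GTR2 (-0.85) fell in both. The median level of the late risers relative to 0 h was -0.07 at 24 h, 0.31 at 48 h and 1.44 at 96 h on the log2 scale. That of the late fallers was 0.49 at 24 h, 0.49 at 48 h and -0.67 at 96 h.

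**Figure D3:**
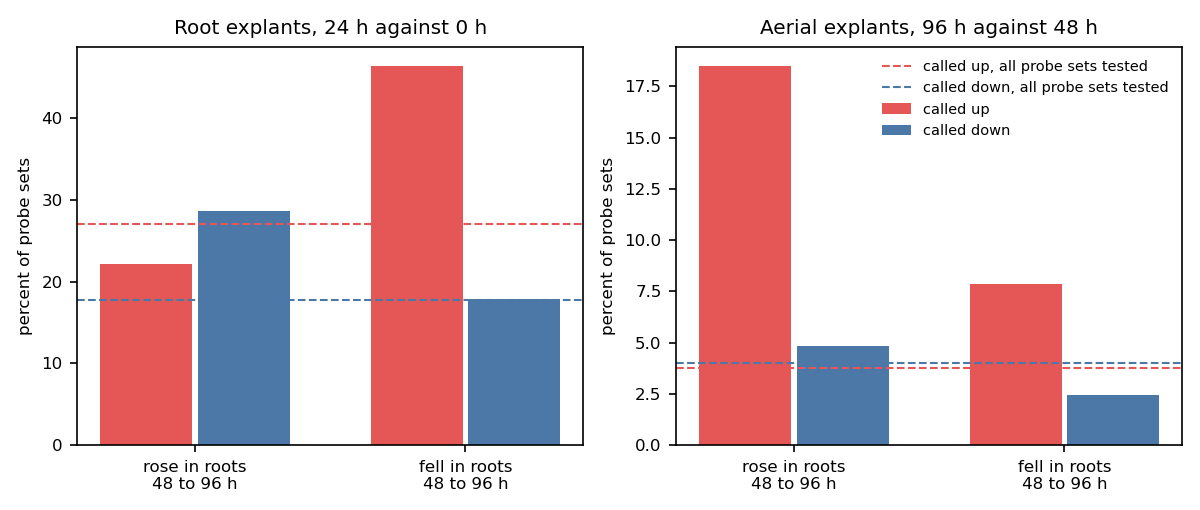
Percent of the probe sets that rose or fell in root explants from 48 to 96 h which were called up (red) or down (blue) in root explants at 24 h against 0 h (left) and in aerial explants at 96 h against 48 h (right). Dashed lines give the percent of all 16765 probe sets tested, and the tallest bars are 46.4% on the left and 18.5% on the right.

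Aerial explants over the same 48 h gave the comparison between organs, on arrays that the root step does not use. There 629 probe sets rose (3.75%) and 673 fell (4.01%). Of the 623 root risers, 115 rose in aerial explants too, or 18.5% (18.3% of the aerial risers), and 30 fell, or 4.82%. Of the 571 root fallers, 14 fell in aerial explants, or 2.45% (2.08% of the aerial fallers), and 45 rose, or 7.88%. With no pseudocount the share of root risers that also rose in aerial explants was 9.56%, against 2.43% of all probe sets.

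Named genes that rose in both organs included BBM and ARPN. BBM had 66.0, 38.0 and 60.3 at 48 h and 231, 286 and 285 at 96 h in aerial explants, a rise of 1.93 (limma adjusted p = 0.00382). The difference between the organs was 0.05 ± 0.59 (adjusted p = 0.977), an SE that leaves room for a sizeable difference. ARPN rose by 2.2 in aerial explants (adjusted p = 0.000573), with a difference of 0.02 ± 0.549 between the organs (adjusted p = 0.991). Also called up in both were EEL, a bZIP transcription factor (1.34 in roots and 1.23 in aerial explants), and ULT1 (ULTRAPETALA1), a regulator of shoot meristem size (1.28 and 0.84), as well as 3xHMG-box2, a protein that binds mitotic chromosomes (0.91 and 0.89). These 3 were named after their values were seen. PSAE-1, a subunit of photosystem I, fell by 1.65 on the log2 scale in roots (262, 192 and 232 at 48 h against 78.8, 38.2 and 60 at 96 h) and by a log2 change of -1.63 in aerial explants, where its lowest signal was 2518.

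**Figure D4:**
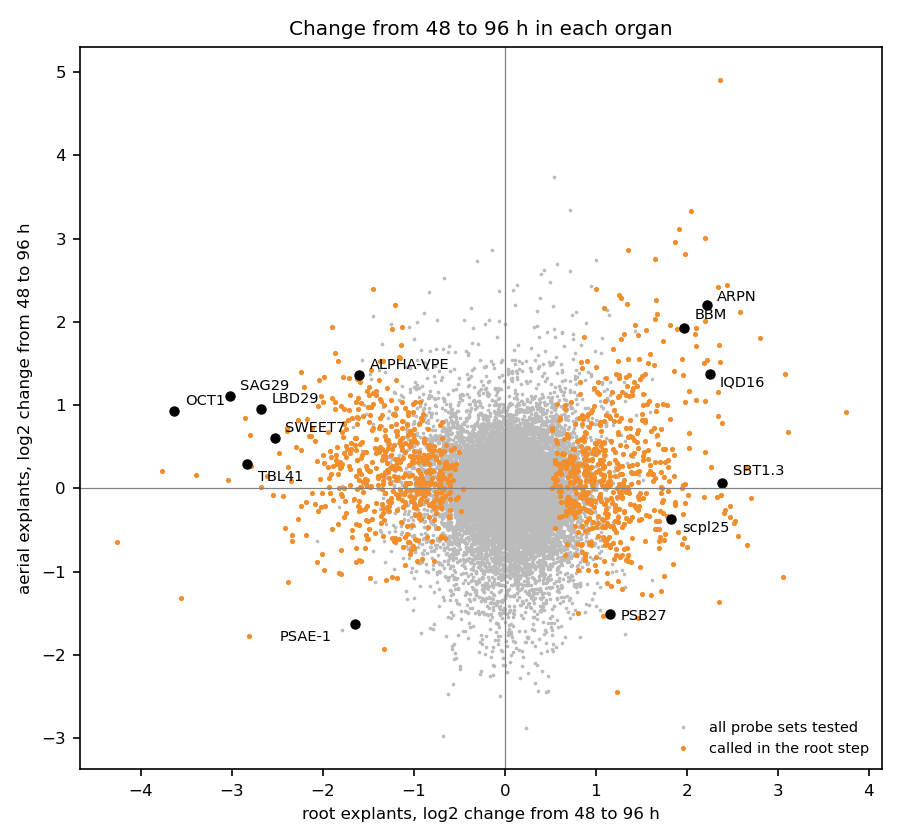
Change from 48 to 96 h (log2) in root explants (horizontal) and aerial explants (vertical) for each of the 16765 probe sets tested (grey), with those called in roots in orange and 13 named genes in black. BBM, ARPN and IQD16 lie high in both organs, and OCT1, SAG29, TBL41, LBD29 and SWEET7 lie far to the left with aerial changes between 0.29 and 1.11.

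The change differed between the organs for 1296 probe sets, 682 in the direction of a higher root than aerial change (4.07%) and 614 in the other (3.66%). Rises were 52.6% of these calls, and 41.1% after centring each array on its median. SAG29 had 1929, 2018 and 1973 at 48 h and 3372, 6587 and 3570 at 96 h in aerial explants, so all 3 arrays at 96 h were above those at 48 h there, while the aerial change was not called (1.11, limma adjusted p = 0.201). Its root change lay below its aerial change by -4.13 ± 0.725 (adjusted p = 0.000649). LBD29 had 948, 1413 and 802 at 48 h and 1654, 2395 and 2001 at 96 h in aerial explants, again without overlap and not called (0.95, adjusted p = 0.208), with a difference of -3.63 ± 0.625 (adjusted p = 0.000566). ALPHA-VPE had 1217, 1400 and 967 at 48 h and 2405, 4303 and 2776 at 96 h, a called rise of 1.36 (adjusted p = 0.0139) against its fall in roots, with a difference of -2.96 ± 0.493 (adjusted p = 0.000432). HHP2 (1.35) and CXE18 (1.12) likewise rose in aerial explants and fell in roots, with differences of -2.93 and -2.54 (adjusted p = 0.000649 and 1.65e-05). SBT1.3 was called in roots and had an aerial change of 0.06, with aerial signals between 822 and 1277 at both times and a difference of 2.33 ± 0.411 (adjusted p = 0.000682).

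**Figure D5:**
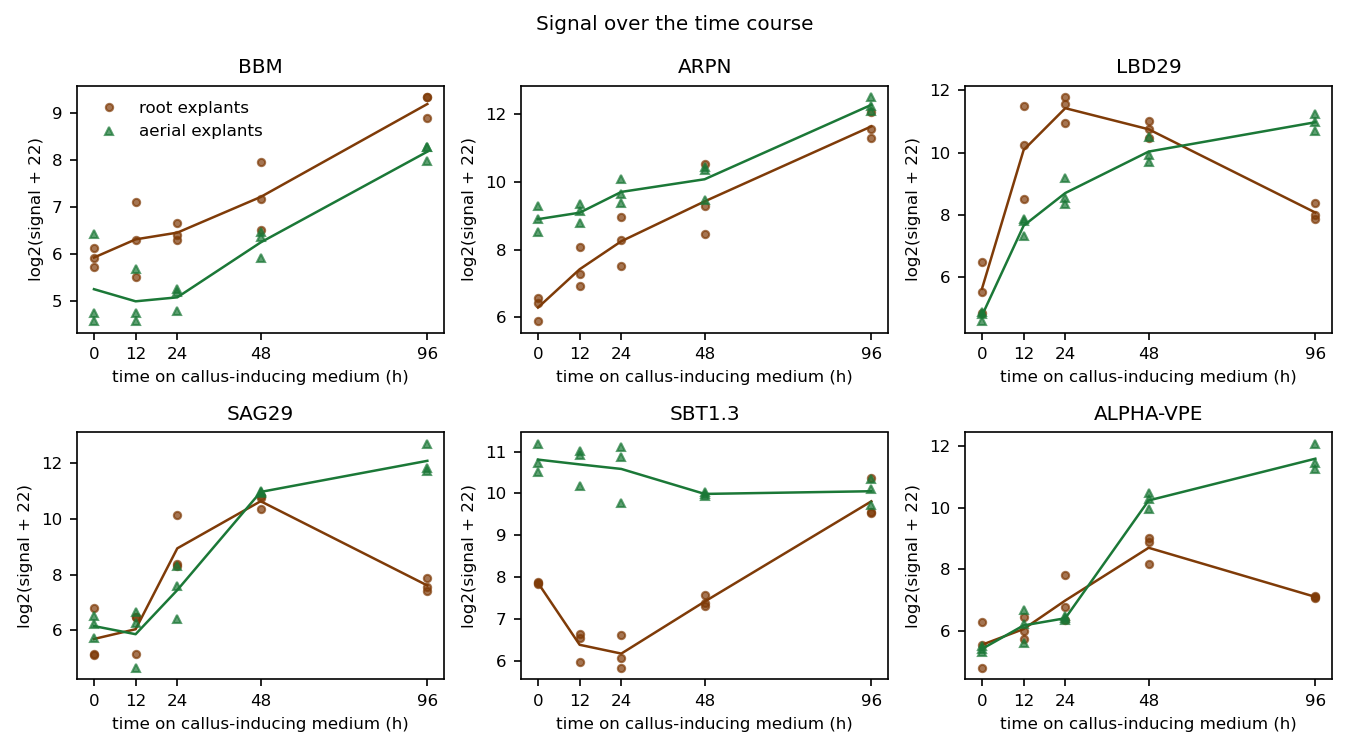
Signal as log2(signal + 22) at 0, 12, 24, 48 and 96 h in root explants (brown circles) and aerial explants (green triangles) for 6 genes, with each array as a point and lines through the group means. BBM and ARPN climb in both organs from 48 to 96 h, while LBD29, SAG29 and ALPHA-VPE fall in roots as their aerial means climb, and SBT1.3 rises in roots to near its aerial level.

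Of 42 measured photosynthesis and thylakoid genes, 1 rose and 1 fell in roots (3.29% and 3.23% of all genes). On the 6 root arrays at 48 and 96 h, 24 of the 42 were above 87.4 at least 3 times and 14 were never above it, so the list's few root calls say little of the dim members. The 42 include THO1, a gene of RNA export and not of photosynthesis, which the list pattern also matched (0.15, not called). PSB27, a gene outside that list, which acts in photosystem II repair, had 117, 70.9 and 73.1 at 48 h and 214, 251 and 191 at 96 h in roots (1.16 ± 0.305, limma adjusted p = 0.0168), against 5403, 4701 and 2778 falling to 1340, 1664 and 1320.0 in aerial explants. Its root call ended without 48 h replicates 2 or 3 or 96 h replicate 2 (1.06 to 1.08, adjusted p = 0.0756 to 0.089). The list's rise was AT4G01150, annotated to the thylakoid, with 292, 285 and 238 at 48 h and 414, 539 and 521 at 96 h in roots (0.80 ± 0.207, adjusted p = 0.0151). It lost its call without 48 h replicate 3 or 96 h replicates 2 or 3 (0.72 to 0.76, adjusted p = 0.0686 to 0.0879). RCA, the activase of Rubisco, had 274, 144 and 147 at 48 h and 122.5, 263 and 147 at 96 h in roots, with overlapping groups and no call (-0.08, adjusted p = 0.906). All 14 measured ribosomal protein genes of the plastid had changes below 0 in roots, but 0 was called by limma's adjusted p (2 had an unadjusted p below 0.05), and their median was -0.48 in roots and -0.9 in aerial explants.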

How the data were processed

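The deposited intensity values are MAS5 signal of ATH1 arrays, per the submitters' processing notes (version not given in the sources used here), with a trimmed mean of 500 on every array. From these values log2(signal + 22) was computed, the pseudocount being the 20th percentile of all values, with no further normalization. Probe sets above 87.4 (the 40th percentile) on at least 3 arrays were kept. Group means of all 30 arrays (10 groups, 28.6 degrees of freedom) were fitted with limma 3.58.1 in R 4.3.3 (lmFit, eBayes with a trend, two-sided), with Benjamini-Hochberg adjustment over 16765 probe sets in each of 4 comparisons. With data simulated around each probe set's mean over all 30 arrays, 47% of changes of log2 size 1 and 93% of size 2 were recovered. These means and the pooled spread cover both organs, so the rates are not specific to root signal levels. The number of arrays limits the precision.

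Gene names come from the platform's annotation, and 13436 of 13513 probe sets with 1 gene matched the reference gene table. Genes not measured may lie on unnamed probe sets, and 593 tested probe sets (IDs ending in _s_at or _x_at) can hybridise with related genes. A gene with several probe sets is shown by the brightest.

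The comparisons, the 38 gene lists and the genes were chosen with earlier results of these data known. List patterns were corrected once they had been matched to the annotation, because clone names and unrelated genes had been caught, and 2 lists were renamed after what they matched. Some unrelated genes stayed in the lists and their counts, among them PDF1A, PDF1B, AQI, FRO1, THO1 and, in the flavonoid list, CHI. Named are the 15 largest rises and falls among called genes with a symbol and groups that do not overlap, the 6 largest differences between organs each way, up to 6 members per list, 12 key genes, and by exception IQD and locus-code genes. Alternatives were other pseudocounts, filters, scalings, a fit without a trend, a replicate block, only the arrays compared, and leaving out each array.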

Additional observations from a re-analysis of the deposited data

Results flagged for a closer look

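For 12 genes the change from 48 to 96 h differed between root and aerial explants in the test of the difference itself (limma, adjusted over 16765 probe sets). They are the 6 largest each way among called genes with a symbol whose arrays did not overlap in at least 1 organ. The root change lay above the aerial change for PSB27 (2.68), PRK (2.48), CaS (2.44), SBT1.3 (2.33), LHCB4.2 (2.28) and scpl25 (2.2). Of these, SBT1.3 and scpl25 rose in roots without a called aerial change. PRK, an enzyme of the Calvin cycle, CaS, a thylakoid calcium sensor, and LHCB4.2, a light-harvesting protein, were dim and not called in roots (signals of at most 76.5) and fell in aerial explants, with log2 changes of -1.86, -2.5 and -1.39. None of the 3 was above 87.4 on any root array at 48 or 96 h, so their differences restate the aerial fall over a root signal near background, and their sizes are not measured root changes.

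The root change lay below the aerial change for OCT1 (-4.56), SAG29 (-4.13), LBD29 (-3.63), SWEET7 (-3.13), TBL41 (-3.12) and ALPHA-VPE (-2.96). All 6 fell in roots, and ALPHA-VPE is the 1 of them that was called in aerial explants, where it rose. The calls for the difference stayed when any 1 array was left out. With no pseudocount those of PRK (adjusted p = 0.0886), CaS (0.09) and LHCB4.2 (0.0655) ended.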

How the results depend on the processing

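Leaving out 1 array at a time gave 636 to 1090 calls for the root step (322 to 611 up, 288 to 479 down), 645 to 1589 for the aerial step (284 to 821 up, 329 to 768 down), 843 to 1702 for the difference (445 to 860 up, 388 to 842 down) and 6555 to 6981 for the first day in roots. Fitting only the arrays compared gave 1871 calls for the root step (990 up, 881 down). With no pseudocount there were 717 for the aerial step (407 up, 310 down) and 781 for the difference (385 up, 396 down). The causes were not tested. Of 92 named results, 25 called ones lost their call with no pseudocount, 11 with no filter, 10 with eBayes without a trend, 7 after median centring, 5 after quantile normalization, 1 with a pseudocount of 64 and 1 with only the arrays compared. No called gene changed sign. The uncalled root changes of 3 genes did, with ranges over the removal of each root array of -0.5 to 0.37 for CaS, -0.37 to 0.19 for RCA and -0.52 to 0.31 for BCAT4: CaS with no pseudocount (0.5) and without 48 h replicate 2 (0.37), RCA without 48 h replicate 1 (0.19) and without 96 h replicates 1 (0.12) or 3 (0.0), and BCAT4 with no pseudocount (0.11) and without 48 h replicates 1 (0.3) or 3 (0.05) or 96 h replicate 1 (0.31). The labels do not say whether equal replicate numbers belong together, and the main fit did not pair them. Same-numbered deviations at 48 and 96 h correlated at 0.283, 0.276 and 0.00933 in roots. In aerial explants they correlated at 0.144, -0.0319 and 0.0442. Whether the samples are paired was not tested. A replicate block gave 1532 calls for the root step, 1690 for the aerial step, 1777 for the difference and 7943 for the first day, and changed none of the 92. Genes near background are limited by signal, since the size of their change depends on the pseudocount.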
